A study of Mus musculus with 37 samples.

Results

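The genes described here encode the V0 sector of the V-ATPase and its 2 accessory proteins. They were chosen by name, 10 of the 55536 genes in the count tables: Atp6v0a1, Atp6v0a2, Atp6v0b, Atp6v0c, Atp6v0d1, Atp6v0d2, Atp6v0e, Atp6v0e2, Atp6ap1 and Atp6ap2. RNA-seq covered total RNA of 37 libraries from 2 tissues, liver and brain cortex, all of mice at an age of 10 months. Libraries were labelled WT, TDP-43Q331K (a knocked-in, disease-linked change in the RNA-binding protein TDP-43, per the series title), TMEM106B-/- (loss of a lysosomal membrane protein), and TMEM106B-/- with TDP-43Q331K, called combined here. Liver had 4 libraries of each genotype, and cortex had 5 WT, 6 TDP-43Q331K, 5 TMEM106B-/- and 5 combined libraries. Strain, sex and the design of the TMEM106B allele are not stated in the labels. The labels also do not tie each library to its own animal, so the spread behind every p-value may be partly technical.

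The V-ATPase is a rotary proton pump. Its cytosolic V1 sector burns ATP and turns the ring of the V0 sector, which carries protons across the membrane and acidifies lysosomes, endosomes and synaptic vesicles. The a subunits hold the channels for protons and help set the pump's location, the c and c″ subunits (Atp6v0c and Atp6v0b) form the ring, the d subunits link the ring to the V1 rotor, and the e subunits are small membrane proteins of the same sector. Atp6v0a1 and Atp6v0e2 are known for their use in neurons, and Atp6v0d2 for its use in osteoclasts and other cells of the macrophage lineage. Atp6ap1 helps V0 assemble, and Atp6ap2 is also called the prorenin receptor.

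Libraries held 50.5 to 74.1 M counts in liver and 28.8 to 46.3 M in cortex. Hepatocyte markers in liver (7 of 7) and neuron markers in cortex (8 of 8) were abundant, as labelled. Tmem106b RNA was no lower in libraries labelled TMEM106B-/- or combined: in liver it lay at 78.5 to 113.5 counts per 1 M library counts (CPM) in WT, 63.6 to 113.2 in TDP-43Q331K, 106.9 to 128.6 in TMEM106B-/- and 122.0 to 142.9 in combined libraries. In combined livers it was higher than in TDP-43Q331K livers by 0.555 ± 0.152 (log2 ± SE, edgeR adjusted p = 0.0497). Against WT the combined livers were at 0.484 ± 0.152 (edgeR adjusted p = 0.0625). In cortex Tmem106b lay at 183.0 to 193.5 CPM in WT, 170.9 to 190.3 in TDP-43Q331K, 176.8 to 194.1 in TMEM106B-/- and 178.6 to 215.7 in combined libraries. The genotype of each library therefore rests on its label, and every direction given below for TMEM106B loss compares libraries so labelled. High acute phase transcripts set apart 3 livers (WT replicate 2, TMEM106B-/- replicate 4, combined replicate 1), and extreme tissue markers set apart 4 cortices (WT replicate 1, TDP-43Q331K replicate 3, TMEM106B-/- replicate 5, combined replicate 2). Calls of Atp6v0e2 and Atp6v0d2 in liver and of Atp6ap2 in cortex are also given without them. Values of genes outside the members are given with all libraries only.

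The clearest change among the members was in an e subunit, so the coding sequences of both e genes are shown first. Each runs to 246 bases from ATG to stop. Capitals mark the bases at which they differ, as GENCODE M21 and GRCm38 give them.
Atp6v0e: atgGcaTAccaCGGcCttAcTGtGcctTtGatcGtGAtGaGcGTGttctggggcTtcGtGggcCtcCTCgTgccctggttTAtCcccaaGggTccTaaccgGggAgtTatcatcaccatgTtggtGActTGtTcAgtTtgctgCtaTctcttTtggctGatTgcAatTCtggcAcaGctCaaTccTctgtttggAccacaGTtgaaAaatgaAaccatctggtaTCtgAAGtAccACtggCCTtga
Atp6v0e2: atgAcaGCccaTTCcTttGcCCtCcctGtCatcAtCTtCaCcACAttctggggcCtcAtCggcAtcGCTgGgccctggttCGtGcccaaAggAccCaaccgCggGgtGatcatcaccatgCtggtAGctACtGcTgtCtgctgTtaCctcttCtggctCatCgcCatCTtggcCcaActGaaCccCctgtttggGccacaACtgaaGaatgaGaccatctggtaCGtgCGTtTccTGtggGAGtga
The pair share 171 of 246 positions (69.5%), and the longest run they share is 12 bases. Atp6v0e2 (ENSMUSG00000039347) lies on chromosome 6 at 48537615 to 48541801, plus strand, and Atp6v0e (ENSMUSG00000015575) on chromosome 17 at 26663231 to 26699647, plus strand, in GRCm38. Of the other pairs of paralogues, Atp6v0d1 and Atp6v0d2 were 65.7% identical over the coding sequence and Atp6v0a1 and Atp6v0a2 61.8%. Atp6v0c is closer to a processed copy, Atp6v0c-ps2 (99.1%, longest shared run 354 bases), which was counted at no more than 1.48 CPM. How reads that match both were counted is not stated, so the size of any error in the Atp6v0c count is not known. Antisense genes overlap 9.9% of the exons of Atp6v0a2 and 11.8% of those of Atp6v0b. They were counted at no more than 0.035 and 1.43 CPM, and the strand setting of the counting is not stated.

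In WT tissue the members fell into a different order in cortex and in liver. Levels between genes are given per length, as CPM per kb of exon, and each is a WT mean ± SD (n = 5 in cortex, n = 4 in liver). The length merges all annotated exons of a gene. It may differ from the transcripts present, so orders and paralogue shares are approximate. In cortex Atp6v0e2 stood at the top with 93.1 ± 1.89 CPM per kb, followed by Atp6v0d1 (86.9 ± 3.65), Atp6ap1 (78.0 ± 0.71), Atp6v0c (74.5 ± 3.15), Atp6v0a1 (71.6 ± 4.56), Atp6v0b (60.8 ± 1.77) and Atp6ap2 (58.1 ± 2.22). Atp6v0a2 (10.5 ± 0.60) and Atp6v0e (6.86 ± 0.38) were far lower. Atp6v0d2 was at 0 counts in 4 of 5 WT cortices and at 2 counts in the other. Neighbours in that order overlapped between libraries except at 5 steps: Atp6v0d1 above Atp6ap1, Atp6v0a1 above Atp6v0b, Atp6ap2 above Atp6v0a2, Atp6v0a2 above Atp6v0e, and Atp6v0e above Atp6v0d2.

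In WT liver the ring subunit Atp6v0b led with 36.9 ± 3.49 CPM per kb. Atp6v0d1 (28.0 ± 1.86), Atp6v0c (25.0 ± 3.17), Atp6ap1 (19.9 ± 1.19) and Atp6ap2 (11.2 ± 2.53) came next. Below them were Atp6v0e (6.17 ± 0.55), Atp6v0a1 (5.63 ± 0.41) and Atp6v0a2 (4.32 ± 0.28), and the lowest were Atp6v0d2 (0.35 ± 0.10) and Atp6v0e2 (0.25 ± 0.05). Atp6v0d1 overlapped with Atp6v0c, Atp6v0e with Atp6v0a1, and Atp6v0d2 with Atp6v0e2. Set side by side, the WT mean CPM of Atp6v0e2 was 366-fold higher in cortex than in liver and that of Atp6v0a1 12.7-fold, while Atp6v0e was nearly level at 1.11-fold. The other members were 1.65-fold (Atp6v0b) to 5.18-fold (Atp6ap2) higher in cortex, apart from Atp6v0d2, which was higher in liver. These ratios cross separately scaled tables and were not tested.

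**Figure D1:**
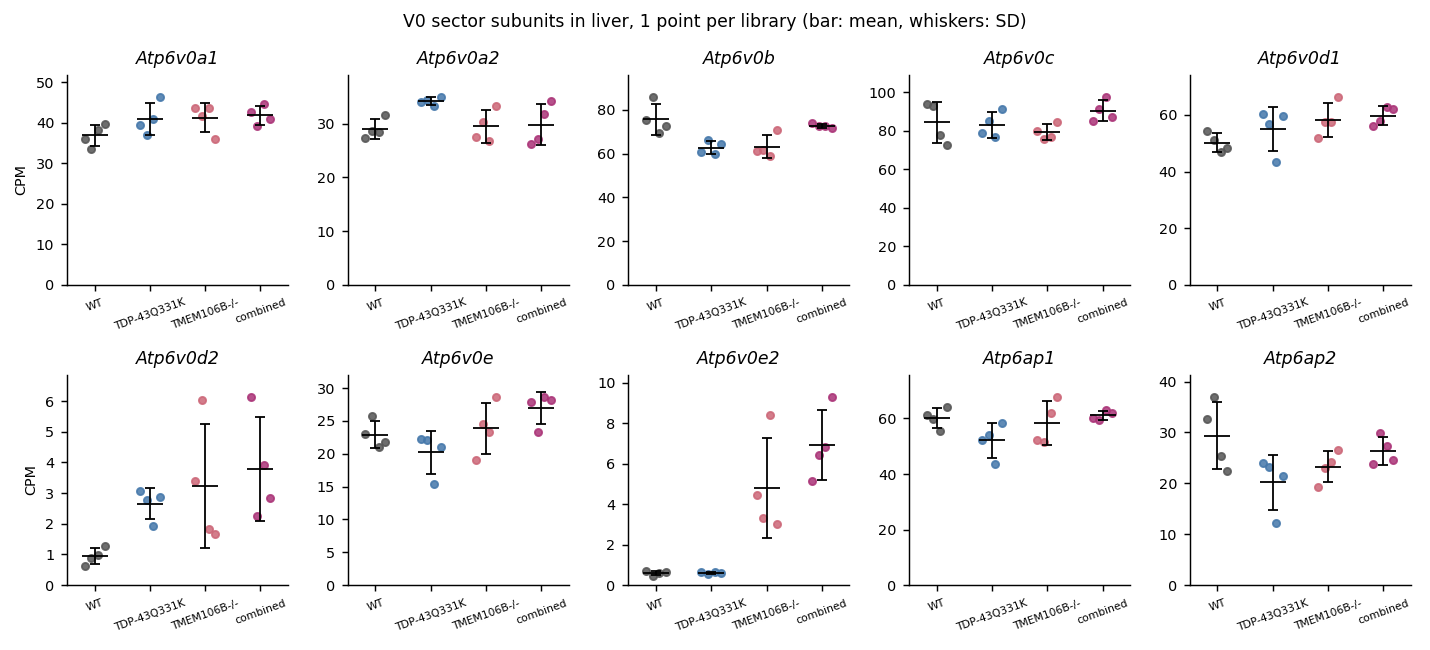
CPM (vertical axes, from 0) of the 10 members in each liver library, with the mean (bar) and SD (whiskers) of each genotype (n = 4). Atp6v0e2 lies at 0.463 to 0.709 in WT and 3.003 to 9.27 in the libraries labelled TMEM106B-/- or combined, and Atp6v0d2 is lowest in WT.

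Loss of TMEM106B was compared with WT in liver to see which members differ on a normal TDP-43 background. By edgeR's quasi-likelihood test with Benjamini-Hochberg adjustment over all genes, 2 of 10 members rose and none fell, against 1.05% of all 16710 genes called in that comparison. They were Atp6v0e2 and Atp6v0d2. The median log2 fold change of the 10 members was 0.04, and that of all genes 0.00275.

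Atp6v0e2, the e subunit that is abundant in brain, was low in WT liver. Its 4 WT livers gave 0.709, 0.463, 0.587 and 0.663 CPM, from 25 to 47 counts each. The TDP-43Q331K livers gave 0.632, 0.531, 0.637 and 0.588 CPM. The TMEM106B-/- livers gave 4.46, 3.33, 8.40 and 3.003 CPM, and the combined livers 5.15, 6.45, 6.83 and 9.27 CPM, from 205 to 539 counts each. Every library labelled TMEM106B-/- or combined was thus above every WT and TDP-43Q331K library, with a gap between 0.709 and 3.003 CPM, while WT and TDP-43Q331K overlapped. The rise over WT was 7.88-fold in TMEM106B-/- liver (log2 fold change 2.98 ± 0.30 SE, edgeR adjusted p = 9.53e-05, 4 of 4 libraries above the WT mean). As liver was sampled in bulk, more cells with the RNA and more RNA per cell cannot be told apart.

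On the TDP-43Q331K background the same comparison, combined against TDP-43Q331K, called 1 of 10 members, again Atp6v0e2, and 3.94% of all genes. Atp6v0e2 was 11.6-fold higher there (3.53 ± 0.31, edgeR adjusted p = 3.96e-06, 4 of 4 libraries). Against WT the combined livers differed in 2 members, Atp6v0e2 (11.4-fold, 3.51 ± 0.30, edgeR adjusted p = 3.66e-06) and Atp6v0d2, and in 7.04% of all genes. These comparisons share libraries and are no separate evidence for each other. Between combined and TMEM106B-/- livers no member passed by edgeR, against 1.04% of all genes (1 member at an unadjusted p under 0.05, and 0 by DESeq2 or limma-voom). Atp6v0e2 differed by 0.53 ± 0.27 (adjusted p = 0.404), with overlapping groups. TMEM106B-/- replicate 3, at 8.40 CPM, was the highest of its group, and without it that difference was 0.95 ± 0.22 (adjusted p = 0.0487). The interaction of both genotypes was 0.55 ± 0.41 for Atp6v0e2 (adjusted p = 0.527).

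Atp6v0e2 stayed called in liver in all 24 alternative settings of each of these 3 comparisons, with adjusted p-values of at most 0.0104. Without the 3 livers set apart, which were left out after seeing the data, it was 3.05 ± 0.30 higher in TMEM106B-/- than in WT (edgeR adjusted p = 0.000224). In combined livers it was then 3.52 ± 0.31 above WT (edgeR adjusted p = 2.58e-05) and 3.65 ± 0.28 above TDP-43Q331K (edgeR adjusted p = 4.78e-06). Of the 6 neuronal markers 4 were under 1 CPM in every liver, with Snap25 at a mean of 0.00205 CPM, while Syt1 had a mean of 7.11 CPM. Their sum ran from 5.25 to 10.1 CPM in WT, 6.57 to 11.6 in TDP-43Q331K, 6.48 to 10.5 in TMEM106B-/- and 6.03 to 7.89 in combined livers. Neither of the 2 that could be tested was called in these 3 comparisons by edgeR, DESeq2 or limma-voom. Adipocyte markers summed to 2.66 to 6.73 CPM in WT, 3.48 to 12.8 in TDP-43Q331K, 3.29 to 13.7 in TMEM106B-/- and 12.3 to 55.7 in combined livers, with 3 of 5 under 1 CPM everywhere, and 1 of the 2 tested rose in combined against WT and against TDP-43Q331K. For TMEM106B-/- against WT 1 of 7 endothelial markers fell, and their sum was 143.6 to 208.9 CPM in WT and 114.2 to 137.7 in TMEM106B-/- livers. In combined livers 2 of 7 hepatocyte markers fell against WT and 2 against TDP-43Q331K, and of 6 stellate cell and fibroblast markers 2 rose against WT and 1 against TDP-43Q331K. The stellate and fibroblast sum was 111.9 to 169.6 CPM in WT, 118.1 to 143.9 in TDP-43Q331K and 156.9 to 189.4 in combined livers. In combined against TDP-43Q331K 1 endothelial marker rose. The part of these cells in the Atp6v0e2 result was not tested.

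In cortex, where Atp6v0e2 is the main e gene, it was not called in any comparison. It lay at 217.6 to 228.6 CPM in WT (median 221.8), 202.8 to 242.3 in TDP-43Q331K (median 224.8), 217.7 to 268.7 in TMEM106B-/- (median 233.3) and 211.7 to 258.3 in combined libraries (median 246.3). All groups overlapped. The log2 fold change was 0.12 ± 0.06 for TMEM106B-/- against WT (edgeR adjusted p = 0.272) and 0.10 ± 0.06 for combined against TDP-43Q331K (edgeR adjusted p = 0.364).

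The difference between the tissues was tested in 1 model of all 37 libraries, with 1 spread per gene for both tissues. Liver was the noisier tissue, with a common biological coefficient of variation of 0.235 against 0.103 in cortex. The effect of TMEM106B-/- against WT on Atp6v0e2 was larger in liver than in cortex by 2.86 ± 0.27 on the log2 scale (edgeR adjusted p = 2.48e-08), and it was the 1 member called, against 2.86% of all 23384 genes. For combined against TDP-43Q331K the excess was 3.45 ± 0.27 (edgeR adjusted p = 9.31e-11), again the 1 member called, against 4.52% of all genes. Both SEs are below those of the liver effects alone (0.30 and 0.305), so adjusted p-values of this fit may be too small. Without the 7 libraries set apart the differences were 2.88 ± 0.27 (edgeR adjusted p = 2.65e-07) and 3.53 ± 0.255 (edgeR adjusted p = 4.42e-10). Atp6v0b and Atp6ap2 came nearest in the second contrast, at 0.28 ± 0.09 (adjusted p = 0.0651) and 0.56 ± 0.18 (adjusted p = 0.0621). Atp6v0b passed there with limma-voom (adjusted p = 0.0346), without liver TMEM106B-/- replicate 4 (0.0363) or cortex combined replicate 5 (0.0494), and in the first contrast without liver TMEM106B-/- replicate 4 (-0.34 ± 0.09, adjusted p = 0.0184). Atp6ap2 passed with limma-voom (adjusted p = 0.0343) and without any 1 of liver WT replicate 2, TDP-43Q331K replicates 1 and 2 and combined replicate 4 (adjusted p 0.0319 to 0.0479). The difference for Atp6v0d2 cannot be read, since its cortex libraries held 0 to 5 counts.

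**Figure D2:**
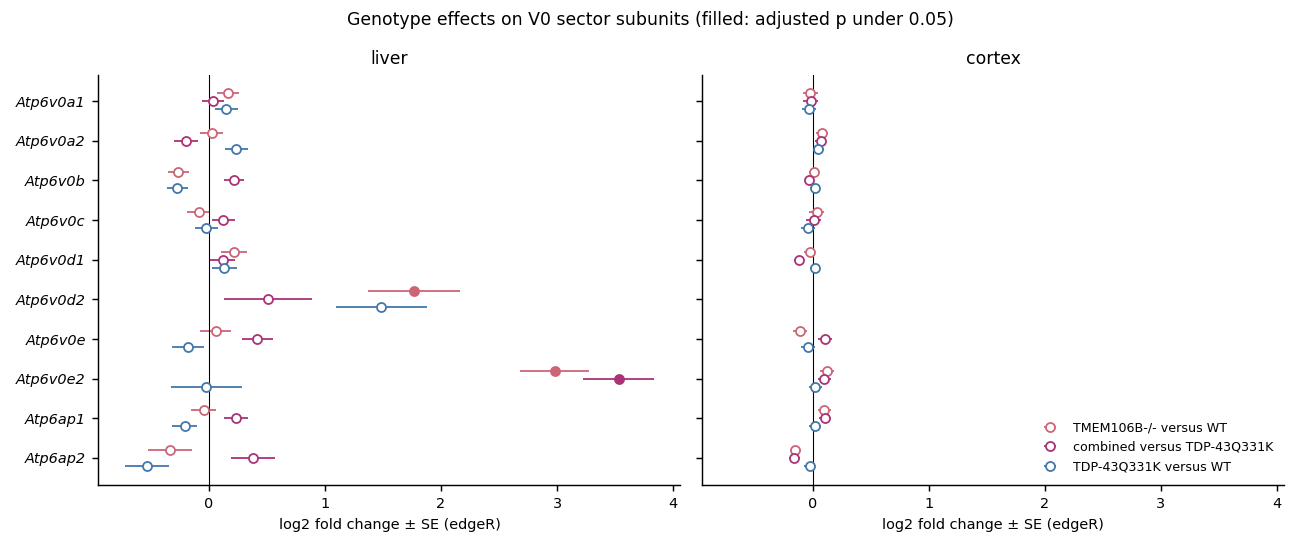
Log2 fold changes ± SE (horizontal axes, edgeR) of the members in liver (left) and cortex (right) for TMEM106B-/- against WT, combined against TDP-43Q331K and TDP-43Q331K against WT; filled points have an adjusted p under 0.05. Atp6v0e2 and Atp6v0d2 stand apart in liver, and no cortex point is filled in these 3 comparisons (combined against WT, where Atp6ap2 was called in cortex, is not drawn); Atp6v0d2 was not tested in cortex.

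The paralogue shares give the same data as composition. Per kb of exon, Atp6v0e2 made up 4.0 ± 0.87% (SD, n = 4) of the summed e genes per WT liver and 4.53 ± 1.08% per TDP-43Q331K liver. Its share was 23.6 ± 9.84% in TMEM106B-/- liver (14.1 to 36.0%) and 28.4 ± 4.88% in combined liver (22.4 to 33.9%). Both overlapped with neither control group. In cortex its share lay between 92.3 and 95.2% in all 21 libraries. The summed e level in liver was 5.93 to 7.13 CPM per kb in WT, 6.99 to 9.80 in TMEM106B-/- and 8.97 to 11.5 in combined libraries. Atp6v0e held the larger share in every liver library.

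**Figure D3:**
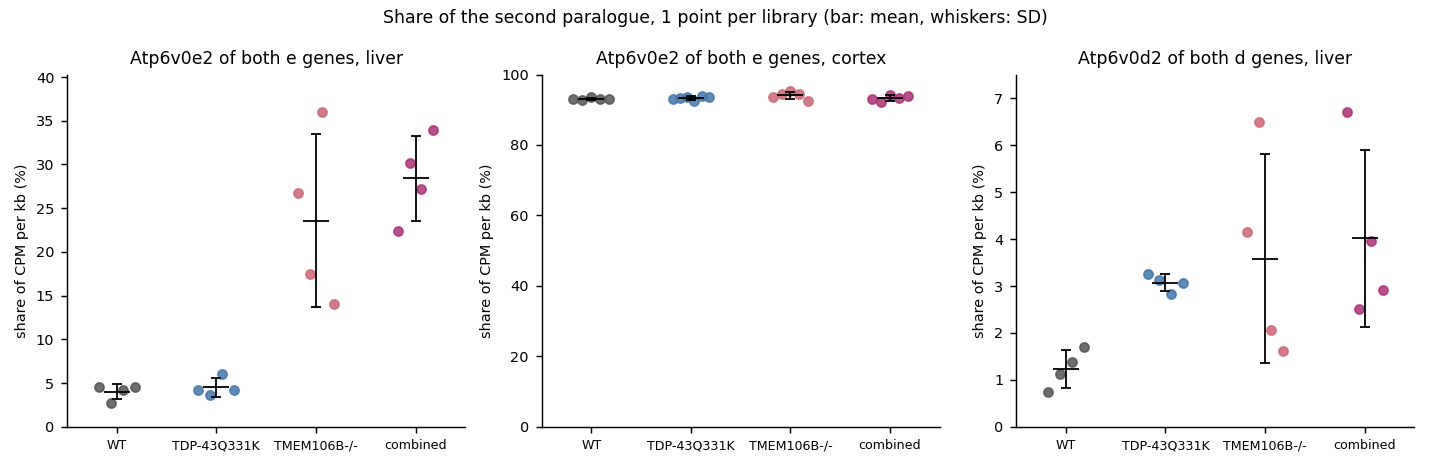
Share of CPM per kb (vertical axes, percent, from 0) held by Atp6v0e2 among both e genes in liver and cortex, and by Atp6v0d2 among both d genes in liver, with mean (bar) and SD (whiskers) of each genotype. In liver Atp6v0e2 goes from 4.0% in WT to 23.6% in TMEM106B-/- and 28.4% in combined libraries, and in cortex it stays above 92%.

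Atp6v0e itself was not called in liver. It lay at 21.1 to 25.7 CPM in WT, 15.3 to 22.2 in TDP-43Q331K, 19.0 to 28.6 in TMEM106B-/- and 23.3 to 28.6 in combined livers. Combined and TDP-43Q331K livers did not overlap, with a log2 difference of 0.42 ± 0.13 (edgeR adjusted p = 0.0908; limma-voom adjusted p = 0.0422). In cortex Atp6v0e lay at 23.1 to 26.7 CPM in WT and 20.96 to 27.7 CPM across the other genotypes. It was at -0.11 ± 0.06 in TMEM106B-/- against WT cortex (edgeR adjusted p = 0.356) and passed with 1 surrogate variable (-0.24 ± 0.06, adjusted p = 0.0352).

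Atp6v0d2 (ENSMUSG00000028238, chromosome 4, 19876841 to 19922605, minus strand), the d subunit known from the macrophage lineage, was low in WT liver, at 0.623, 0.888, 0.993 and 1.27 CPM. The TDP-43Q331K livers gave 3.08, 2.77, 1.91 and 2.86 CPM. The TMEM106B-/- livers gave 3.41, 6.03, 1.84 and 1.65 CPM, and the combined livers 6.12, 2.26, 3.92 and 2.83 CPM. All 12 livers with a changed genotype were above all 4 WT livers, and these 3 genotypes overlapped with each other. Counts ran from 36 to 90 in WT and from 105 to 395 in the others.

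The rise of Atp6v0d2 over WT was 3.99-fold in combined livers (1.996 ± 0.40, edgeR adjusted p = 0.00608, 4 of 4 libraries). That call was kept in all 24 alternative settings, with adjusted p-values up to 0.0258. In TMEM106B-/- livers the rise was 3.40-fold (1.77 ± 0.40, edgeR adjusted p = 0.0439), and this call was lost in 15 of 24 settings; adjusted p-values ran from 0.000533 to 0.142 over all 24. In 5 of the 15 all 16 livers or the compared groups were kept, with another tool, filter or design (log2 fold change 1.60 to 1.77, adjusted p 0.0603 to 0.137). It was also lost without any 1 of WT replicates 1 to 4, TDP-43Q331K replicates 1, 2 or 4, TMEM106B-/- replicates 1 or 2, or combined replicate 3 (log2 fold change 1.27 to 1.94, adjusted p 0.0549 to 0.142). TDP-43Q331K livers were 2.80-fold above WT (1.49 ± 0.40) and did not pass (edgeR adjusted p = 0.12; DESeq2 adjusted p = 0.0107). Without the 3 livers set apart the values were 1.63 ± 0.39 for combined (edgeR adjusted p = 0.0258), 1.96 ± 0.39 for TMEM106B-/- (edgeR adjusted p = 0.028) and 1.46 ± 0.37 for TDP-43Q331K (edgeR adjusted p = 0.141).

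None of 11 Kupffer cell and macrophage markers was called by edgeR in any of the 6 liver comparisons, and DESeq2 and limma-voom called 1 each, in combined against TDP-43Q331K. At an unadjusted p under 0.05 there were 6 of 11 for TDP-43Q331K against WT (median log2 fold change -0.56) and 0 for TMEM106B-/- or combined against WT. Their sum ran from 193.7 to 394.1 CPM in WT, 128.3 to 214.0 in TDP-43Q331K, 170.5 to 247.5 in TMEM106B-/- and 189.5 to 296.9 in combined livers. The part of these cells in the rise of Atp6v0d2 was not tested. Atp6v0d2 held 1.24 ± 0.40% of the summed d genes per kb over the WT livers, 3.07 ± 0.18% over TDP-43Q331K, 3.58 ± 2.23% over TMEM106B-/- and 4.02 ± 1.89% over combined livers. In cortex, with 0 to 5 counts per library, it was not tested.

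Atp6v0d1, the widely expressed d subunit, was not called in either tissue. The range was 47.0 to 54.4 CPM for WT livers, 43.4 to 60.3 for TDP-43Q331K, 51.9 to 66.3 for TMEM106B-/- and 56.2 to 62.8 for combined livers. Combined and WT livers did not overlap, at 0.25 ± 0.11 (edgeR adjusted p = 0.175; limma-voom adjusted p = 0.0452). In cortex it lay at 150.5 to 166.3 CPM in WT and 138.8 to 161.1 in combined libraries (-0.10 ± 0.05, edgeR adjusted p = 0.206). Combined replicate 5 gave 161.1 CPM, and without it Atp6v0d1 passed in cortex against WT (-0.15 ± 0.04, edgeR adjusted p = 0.0439) and against TDP-43Q331K (-0.16 ± 0.04, edgeR adjusted p = 0.0274).

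Among the a subunits, Atp6v0a1 lay at 33.6 to 39.6 CPM in WT liver and 36.1 to 46.4 in the other genotypes, and at 389.8 to 512.6 CPM in all cortex groups. Its largest log2 fold change in liver was 0.18 ± 0.10 (combined against WT, edgeR adjusted p = 0.273). Atp6v0a2 was at 33.3 to 35.0 CPM in TDP-43Q331K livers and 27.3 to 31.6 in WT, without overlap, but at 0.24 ± 0.10 it did not pass (edgeR adjusted p = 0.279). Tcirg1, which encodes the a3 subunit and is no member of the list above, had the largest a share in WT liver, 60.5 ± 3.79% per kb. Its share was 52.3 ± 5.52% in TDP-43Q331K, 48.2 ± 1.89% in TMEM106B-/- and 48.6 ± 3.36% in combined livers. Tcirg1 fell by 0.60 ± 0.15 on the log2 scale in combined against WT livers (edgeR adjusted p = 0.0266), from 58.7 to 87.5 CPM in WT to 42.7 to 50.1 CPM in combined. In TMEM106B-/- livers it lay at 42.3 to 49.2 CPM (-0.63 ± 0.15, edgeR adjusted p = 0.0604). In cortex Atp6v0a1 held 81.4 to 86.1% of the a genes in all libraries.

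The ring subunits showed small differences in liver that did not pass. Atp6v0b lay at 69.4 to 85.9 CPM in WT, 59.9 to 66.2 in TDP-43Q331K, 59.0 to 71.0 in TMEM106B-/- and 71.8 to 73.97 in combined livers. Against WT its log2 fold change was -0.27 ± 0.09 in TDP-43Q331K (edgeR adjusted p = 0.185), -0.26 ± 0.09 in TMEM106B-/- (edgeR adjusted p = 0.169) and -0.06 ± 0.09 in combined livers (edgeR adjusted p = 0.755). Its interaction was 0.48 ± 0.13 (edgeR adjusted p = 0.0919; DESeq2 adjusted p = 0.014; limma-voom adjusted p = 0.0392), and it passed by edgeR without TMEM106B-/- replicate 4 (0.54 ± 0.12, adjusted p = 0.0412). By edgeR no member passed the liver interaction, against 0.688% of all genes, with 3 members at an unadjusted p under 0.05 and 1 each by DESeq2 and limma-voom. Atp6v0c lay at 72.8 to 97.6 CPM over all 16 livers and at 220.4 to 288.4 CPM over all 21 cortices, with every group overlapping WT. Atp6v0b in cortex lay at 117.4 to 135.6 CPM.

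For TDP-43Q331K against WT in liver no member passed by edgeR, against 0.263% of all genes. At an unadjusted p under 0.05 there were 4 members, by DESeq2 1 (Atp6v0d2) and by limma-voom 0. The median of the 10 members was -0.02, and that of all genes -0.00871.

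In cortex the 1 member called by edgeR in any comparison was an accessory gene. Atp6ap2 (ENSMUSG00000031007, chromosome X, 12587801 to 12617049, plus strand) gave 149.6, 151.7, 162.3, 148.8 and 148.4 CPM in WT cortex. The 6 TDP-43Q331K libraries ran from 139.1 to 158.3 CPM (median 150.4). The TMEM106B-/- libraries gave 141.5, 126.6, 151.1, 142.3 and 124.2 CPM, and the combined libraries 137.3, 129.6, 127.3, 130.3 and 143.3 CPM. Every combined library was below every WT library, while TMEM106B-/- overlapped WT. Atp6ap2 fell by 0.19 ± 0.05 on the log2 scale in combined against WT, 1.14-fold (edgeR adjusted p = 0.0366, 5 of 5 libraries below the WT mean). It was the 1 of 9 tested members called there, against 4.89% of all 21248 genes.

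The Atp6ap2 call was lost in 9 of 29 alternative settings, with adjusted p-values of 0.0543 to 0.394 in those 9 and from 0.0121 over all 29. These included the replicate block (-0.19 ± 0.05, adjusted p = 0.0556) and 1 surrogate variable, where the value was much smaller (-0.10 ± 0.05, adjusted p = 0.394). It was also lost without WT replicates 2, 3 or 4 or combined replicates 2, 3 or 4 (-0.20 to -0.17, adjusted p 0.0583 to 0.0936), and without the 4 cortices set apart (-0.19 ± 0.06, adjusted p = 0.0543). Without those cortices Atp6ap1 passed instead (0.18 ± 0.04, edgeR adjusted p = 0.0304), as it did without combined replicate 2 alone (0.18 ± 0.04, edgeR adjusted p = 0.0239). Oligodendrocyte markers moved in the same comparison: 6 of 6 fell in combined against WT cortex, with a median log2 fold change of -0.94 against 0.00894 for all genes. In TMEM106B-/- against WT, where Atp6ap2 was not called by edgeR, 6 of 6 also fell (median -1.26). Their sum ran from 2800 to 3181 CPM in WT, 1883 to 3044 in TDP-43Q331K, 993.7 to 1430 in TMEM106B-/- and 1083 to 2429 in combined cortices. Of the other cortex markers, 2 of 6 for astrocytes rose in combined against WT. For neurons, microglia, endothelial cells, meninges and choroid plexus 1 marker each rose, and 0 of 5 striatum markers were called. The part of all these cells in the Atp6ap2 result was not tested.

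For TMEM106B-/- against WT in cortex no member passed by edgeR, against 5.16% of all genes, with 1 member at an unadjusted p under 0.05 and 0 by DESeq2 and limma-voom. Atp6ap2 was at -0.15 ± 0.05 there (adjusted p = 0.0941), and at -0.19 ± 0.05 without TMEM106B-/- replicate 3 (adjusted p = 0.0289). For combined against TDP-43Q331K no member passed by edgeR, against 1.4% of all genes, with 2 at an unadjusted p under 0.05. Atp6ap2 was at -0.16 ± 0.05 (adjusted p = 0.0927) and passed by DESeq2 (adjusted p = 0.0462) and limma-voom (adjusted p = 0.0442), and by edgeR without combined replicate 5 (adjusted p = 0.0327). TDP-43Q331K against WT, combined against TMEM106B-/- and the interaction each called 0 members in cortex by edgeR, DESeq2 and limma-voom, and 0% of all genes by edgeR. At an unadjusted p under 0.05 there were 0, 1 and 1 members.

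Atp6ap1, the assembly factor, lay at 233.3 to 238.6 CPM in WT cortex, 234.5 to 244.8 in TDP-43Q331K, 234.5 to 267.8 in TMEM106B-/- and 217.5 to 294.0 in combined libraries. The spread in the combined group was the widest, and its log2 fold change against WT was 0.12 ± 0.05 (edgeR adjusted p = 0.177). In liver Atp6ap1 lay at 55.5 to 64.1 CPM in WT, 43.6 to 58.3 in TDP-43Q331K, 51.4 to 67.6 in TMEM106B-/- and 59.5 to 63.0 in combined libraries. Atp6ap2 in liver lay at 22.4 to 36.9 CPM in WT and 12.3 to 23.9 in TDP-43Q331K (-0.54 ± 0.19, edgeR adjusted p = 0.212). Both accessory genes are on the X chromosome.

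**Figure D4:**
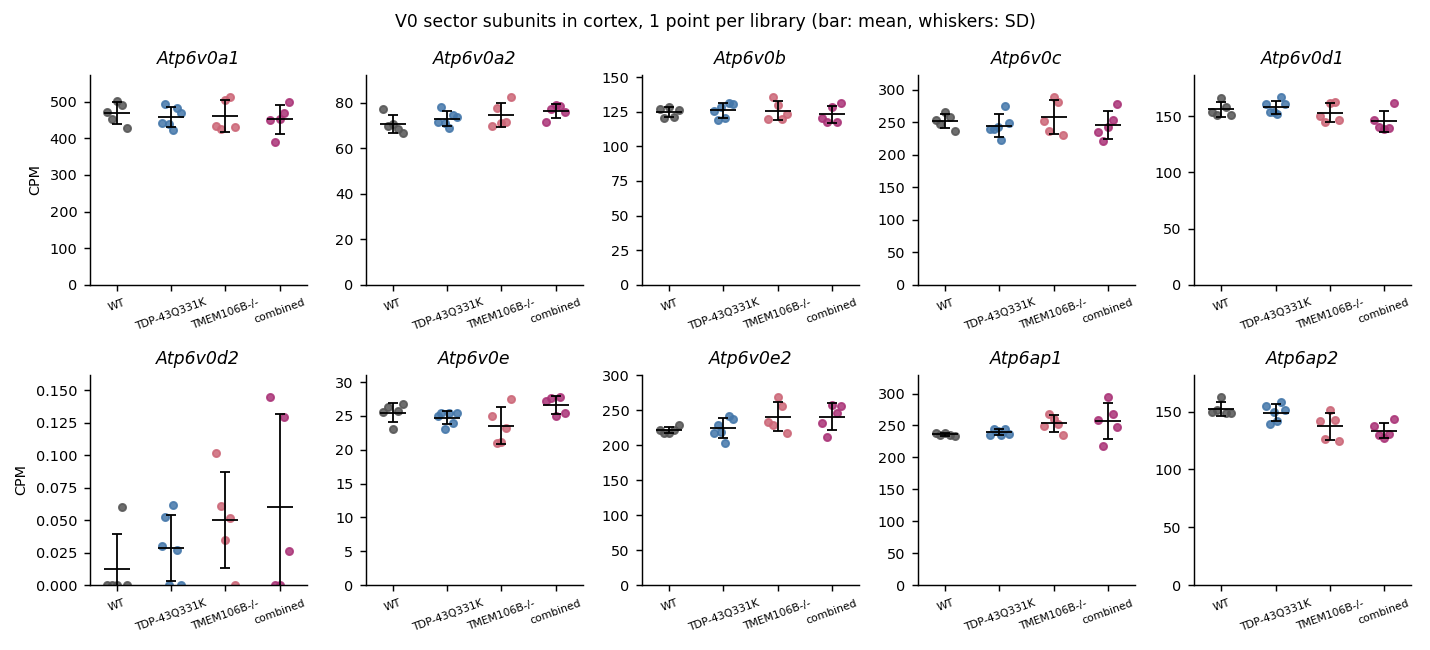
CPM (vertical axes, from 0) of the 10 members in each cortex library, with the mean (bar) and SD (whiskers) of each genotype (n = 5, 6, 5 and 5). Atp6ap2 lies at 148.4 to 162.3 in WT and 127.3 to 143.3 in combined libraries; Atp6v0d2 never exceeds 5 counts.

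Genes of the rest of the pump were counted in the same fits. Of 13 V1 sector genes 9 could be tested in liver, and 0 were called by edgeR in any of the 6 comparisons. At an unadjusted p under 0.05 there were 0 to 3 per comparison. DESeq2 called 1, in combined against TDP-43Q331K, and limma-voom called 1 there and 1 in combined against WT. The median log2 fold change of V1 was 0.00178 for TMEM106B-/- against WT and 0.25 for combined against TDP-43Q331K, beside 0.04 and 0.22 for the V0 members. In cortex 10 V1 genes could be tested, and 3 fell in combined against WT by edgeR: Atp6v1c1 (-0.20 ± 0.06, adjusted p = 0.0428) and Atp6v1g1 (-0.21 ± 0.06, adjusted p = 0.0344), both stator subunits, and Atp6v1h (-0.13 ± 0.04, adjusted p = 0.0495), a regulatory subunit. DESeq2 and limma-voom also called 3 there, and 4.89% of all genes were called by edgeR. In this comparison 6 of 6 oligodendrocyte markers fell. In TMEM106B-/- against WT cortex 6 of 6 fell as well, and 0 of 10 V1 genes were called there by edgeR. The part of these cells in the V1 values was not tested. Of 12 tested genes for assembly and regulation of the pump and of the 4 MiT-TFE factors (3 tested in cortex), which drive lysosomal genes, 0 were called in either tissue by edgeR, with 0 to 4 per comparison at an unadjusted p under 0.05. DESeq2 and limma-voom called at most 2 of the assembly genes and 0 of the MiT-TFE factors in a comparison. Of the Ragulator and Rag genes, which couple the pump to mTORC1, 1 of 9 tested rose in liver, in 2 comparisons that called 7.04% and 3.94% of all genes, so the count is near that background. It was Lamtor2, at 0.29 ± 0.08 in combined against WT (edgeR adjusted p = 0.0413) and 0.35 ± 0.08 against TDP-43Q331K (edgeR adjusted p = 0.0225). All these lists were chosen with earlier results of these data known.

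Lysosomal genes often carry the letters CACGTG near their start, the core of the element that MiT-TFE factors bind. RefSeq promoter windows of 300 bases (GRCm38.p6) were at hand for 8 of the 10 members. Those of both e genes are shown because Atp6v0e2 was called in liver and Atp6v0e was not. Capitals mark CACGTG.
Atp6v0e2, chr6:48537319-48537618, plus strand: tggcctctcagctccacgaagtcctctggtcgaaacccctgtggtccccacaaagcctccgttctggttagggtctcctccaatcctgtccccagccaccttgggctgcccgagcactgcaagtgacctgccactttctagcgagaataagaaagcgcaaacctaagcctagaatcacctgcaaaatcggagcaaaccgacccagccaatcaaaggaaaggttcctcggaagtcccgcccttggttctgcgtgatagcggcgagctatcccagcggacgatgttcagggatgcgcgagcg
Atp6v0e, chr17:26676146-26676445, plus strand: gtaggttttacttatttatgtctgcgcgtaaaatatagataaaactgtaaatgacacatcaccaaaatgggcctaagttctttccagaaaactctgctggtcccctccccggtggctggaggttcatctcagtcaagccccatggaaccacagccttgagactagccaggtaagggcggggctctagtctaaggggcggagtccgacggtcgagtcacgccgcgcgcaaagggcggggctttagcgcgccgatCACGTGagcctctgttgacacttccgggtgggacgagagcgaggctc
The window of Atp6v0e2 holds no CACGTG on either strand, and that of Atp6v0e holds 1, within the longer match TCACGTGA. Among the other members Atp6v0b holds 2 and Atp6v0d1 holds 1 (also TCACGTGA). Of all 32851 such windows, 7.2% hold CACGTG and 1.0% TCACGTGA. The letters CACGTG read the same on both strands, and each TCACGTGA contains a CACGTG. A match is only a description of the sequence.

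Atp6v0e2 lies on the same chromosome as the targeted gene. Tmem106b is on chromosome 6 at 13069759 to 13089269, 35.5 Mb from Atp6v0e2. In liver, TMEM106B-/- against WT, 12 of 164 tested genes between Tmem106b and Atp6v0e2 were called (7.32%), against 0.987% on other chromosomes. For combined against TDP-43Q331K it was 19 of 164 (11.6%) against 3.78%. In cortex the shares of the same stretch were 13.8% against 5.07%, and 7.29% against 1.23%. DNA linked to the targeted allele and the loss of TMEM106B itself cannot be told apart in this design as causes of the Atp6v0e2 difference, since every library labelled TMEM106B-/- or combined may carry both.

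**Figure D5:**
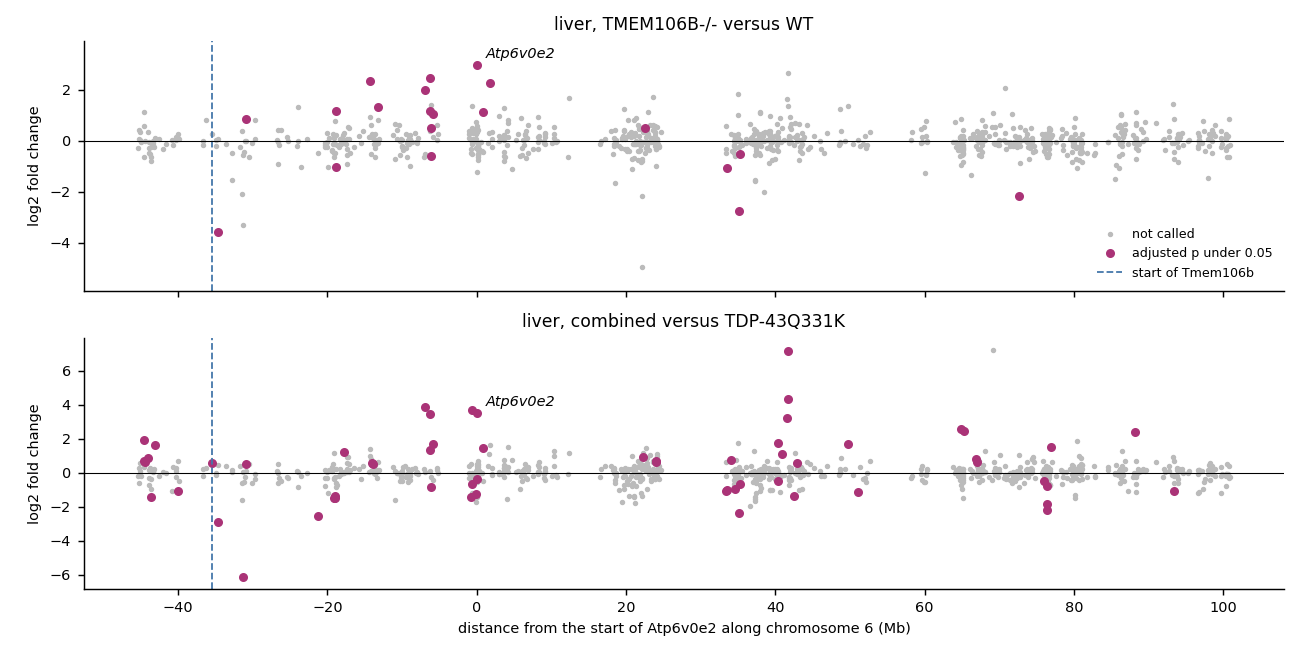
Log2 fold change (vertical axes) of tested chromosome 6 genes in liver against distance from the start of Atp6v0e2 in Mb (horizontal axis), for TMEM106B-/- against WT (top) and combined against TDP-43Q331K (bottom); purple points have an adjusted p under 0.05. In the top panel 12 called genes lie between Tmem106b (dashed line, 35.5 Mb away) and Atp6v0e2.

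Close to Atp6v0e2 the called changes went in both directions, except for TMEM106B-/- against WT in liver. Of 38 tested liver genes within 1 Mb, 1 rose in TMEM106B-/- against WT, beside 1.05% of all genes called. It was Ccdc126 (1.14 ± 0.22, edgeR adjusted p = 0.0187), and the median of the 38 was -0.09. In combined against TDP-43Q331K 2 rose (Gm44041 and Ccdc126) and 4 fell (Zfp786, Zfp398, Sspo and Repin1), beside 3.94% of all genes called. In cortex, where Atp6v0e2 was not called, 40 neighbours were tested. For TMEM106B-/- against WT 4 rose (Rny3, Rny1, Tmem176b and Tmem176a) and Sspo fell, beside 5.16% of all genes called. For combined against TDP-43Q331K Rny1 and Repin1 rose and 1700026J14Rik and Zfp775 fell, beside 1.4% of all genes called. Within 1 Mb of Tmem106b 5 other liver genes were tested. Of these only 1110019D14Rik was called, lower in TMEM106B-/- than in WT (-3.56 ± 0.29, edgeR adjusted p = 1.19e-05). In combined against TDP-43Q331K it was at -2.9 ± 0.27 (edgeR adjusted p = 9.72e-06). In cortex 0 of 6 were called there.

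The genes whose log2 CPM was most like that of Atp6v0e2 over the 16 livers were, by Pearson r, Gstk1 (0.975), Tmem139 (0.933), Ccdc126 (0.922), Pcbd1 (0.918) and AC115117.1 (0.914). The first 3 lie on chromosome 6, 6.29, 6.28 and 0.78 Mb from Atp6v0e2. All 16 values share the genotype groups and library depths, so these r are a description. Gstk1, a mitochondrial and peroxisomal glutathione transferase, was 1.17 ± 0.12 higher in TMEM106B-/- than in WT liver (edgeR adjusted p = 9.53e-05). Over the 21 cortices a different set came first: Ttll1 (0.879), Gng3 (0.866), Ppp2r1a (0.853), Scn2b (0.847) and Ubap2l (0.846). None of these lies on chromosome 6. Among the other members the highest r with Atp6v0e2 in liver were 0.514 for Atp6v0d2 and 0.513 for Atp6v0d1. In cortex they were 0.714 for Atp6v0c, 0.699 for Atp6ap1 and 0.589 for Atp6v0a1.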

How the data were processed

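RNA-seq libraries of 16 livers and 21 cortices were analysed. Per the labels' protocols, Trizol extracts were turned into directional libraries. The submitters' processing notes name Trim Galore, cutadapt, FastQC, GRCm38 and mm10. Which aligner, counting program and strand setting made the table is not given in the sources used here. Values deposited by the authors are raw counts per gene, not normalized. All 55536 identifiers matched GENCODE M21. Of the cortex columns 1 matched no sample and was not used here.

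Each tissue was fitted with its 4 genotypes in 1 model (R 4.3.3, edgeR 4.0.16): filterByExpr (minimum count 10, minimum total 15) left 16710 liver and 21248 cortex genes, TMM set the library scale, and the robust quasi-likelihood test was two-sided. P-values were adjusted by Benjamini-Hochberg over all genes, and an adjusted p under 0.05 was called. The SE given for edgeR was derived from the test, as the absolute log2 fold change divided by the square root of its F statistic. The residual degrees of freedom were 12 and 17, and edgeR's common biological coefficient of variation 0.235 (liver) and 0.103 (cortex). The 6 comparisons per tissue were 5 contrasts of genotypes and the interaction. A fit of all 37 libraries (23384 genes), with 1 spread per gene for both tissues, tested the liver effect minus the cortex effect. Median log2 fold changes of all genes lay between -0.029 and 0.00894 in the 12 within-tissue comparisons. The fits were also run on simulated counts, whose outcome is not given here. Those for the fit of both tissues had 1 spread per gene, so they cannot show the effect of unequal spread between tissues.

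The alternatives were DESeq2 1.42.0, limma-voom (limma 3.58.1) with quality weights, RLE size factors, the fit without the filter, only the compared groups, a replicate block, 1 surrogate variable (sva 3.50.0), each library left out, and, chosen after seeing the data, the 7 libraries set apart left out. All members are named, with each library's value for those called. Of the other pump, Ragulator and MiT-TFE genes those called are named. So are the called genes within 1 Mb of Atp6v0e2 or Tmem106b, and 5 genes per tissue by likeness. The members and lists were chosen with earlier results of these data known. Coding sequences came from the GENCODE M21 annotation on GRCm38, and promoters from RefSeq.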

Additional observations from a re-analysis of the deposited data

Results flagged for a closer look

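A sample far from its group was sought among 76 groups of member values, and chance alone gives about 1 in 20 groups. There were 3 such samples. Atp6v0e was at 15.3 CPM (15.33) in TDP-43Q331K liver replicate 3, below the other TDP-43Q331K livers, and at 23.3 CPM (23.26) in combined liver replicate 2, below the other combined livers. Atp6ap2 was at 162.3 CPM in WT cortex replicate 3, above the other WT cortices, and without that library the fall of Atp6ap2 in combined against WT cortex was no longer called (-0.17 ± 0.05, edgeR adjusted p = 0.0936).

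The effect on Atp6v0e2 differed between the tissues by a test of the difference itself. Liver exceeded cortex by 2.86 on the log2 scale for TMEM106B-/- against WT and by 3.45 for combined against TDP-43Q331K.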

How the results depend on the processing

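Counts of called members moved as follows. With limma-voom there were 1 for TMEM106B-/- against WT in liver, 2 for combined against TDP-43Q331K in liver, 1 for the liver interaction, 1 for combined against TDP-43Q331K in cortex and 3 for the liver against cortex difference of combined against TDP-43Q331K. With DESeq2 there was 1 each for TDP-43Q331K against WT in liver, the liver interaction and combined against TDP-43Q331K in cortex. For TMEM106B-/- against WT in liver there was 1 with no low-count filter, with only the compared groups and with 1 surrogate variable. With 1 surrogate variable there was also 1 for TMEM106B-/- against WT and 0 for combined against WT in cortex. With each library left out in turn the counts ran from 1 to 2 for both liver against cortex differences and for TMEM106B-/- against WT in liver. They ran from 0 to 1 for combined against TMEM106B-/- and the interaction in liver and for TMEM106B-/- against WT in cortex, and from 0 to 2 for combined against WT and combined against TDP-43Q331K in cortex. Calls of Atp6v0e2 in 3 liver comparisons and of both its tissue differences, and of Atp6v0d2 in combined against WT liver, held in every setting run.

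Deviations of same-numbered libraries within a tissue correlated between -0.196 and 0.158 in cortex (median -0.0129) and between -0.207 and 0.278 in liver (median -0.0428). For different numbers the medians were 0.000189 and 0.019, so the replicate numbers showed no pairing within a tissue. Whether a liver and a cortex came from 1 mouse is not given in the labels, and the fit of all 37 libraries treats them as independent. With the replicate block, 1 member was called for TMEM106B-/- against WT in liver and 0 for combined against WT in cortex, and no other count of called members changed by over 1.5 times. Of 3827 member values under the alternatives, 3569 were called neither there nor in the main analysis, and 141 of these had the other sign. Atp6v0d2 was too low to be tested in cortex, where no library held more than 5 counts. Whether the spread in liver is between animals is not given in the labels, and the causes of the moved counts were not tested.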
